A study of Homo sapiens with 15 samples.

Results

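The NRF2 target genes described here were NQO1, HMOX1, GCLC, GCLM, TXNRD1, SRXN1, AKR1C1, AKR1B10 and SQSTM1, a list of 9 known targets taken by name. All 9 were among the 16887 genes of each deposited table. A level is given as a normalised count, the read count of a gene scaled to make libraries comparable. Of the 9, 8 passed a filter of at least 10 normalised counts in at least 5 libraries, as did 11588 genes in all, and AKR1B10 did not. Polyadenylated RNA had been sequenced from Mia PACA-2, an established human pancreatic cancer line, to ask what raised cytidine deaminase (CDA) does in these cells. The 15 libraries fell into 3 groups of 5. They were control cells, cells overexpressing CDA, which deaminates cytidine and deoxycytidine, and cells overexpressing CDA_E67Q, in which glutamine replaces the glutamate that the enzyme uses in catalysis. No group had received a drug, and every library has a pool number, 1 to 5. What a pool stands for, how the constructs were delivered and what the control cells carry are not given in the sources used here. The p-values thus rest on differences among libraries that are not known to be independent biological replicates.

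NRF2, the product of NFE2L2, is the transcription factor that raises antioxidant and detoxifying genes. In resting cells KEAP1 presents NRF2 to a ubiquitin ligase built on CUL3 and RBX1, and NRF2 is degraded. Oxidants and electrophiles modify KEAP1, NRF2 accumulates, and it pairs with a small MAF protein such as MAFG on antioxidant response elements, which the repressor BACH1 can occupy instead. In pancreatic cancer the pathway is known for its part in drug resistance.

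The core of the antioxidant response element, searched here as TGACNNNGC on both strands, was looked for in the 250 bases before each RefSeq start site (GRCh38.p14). RefSeq promoters matched 7 of the 9 genes, as 10 windows. A match lay in 3 of the 10 windows, 1 of GCLM and both of TXNRD1, and in 3830 of all 35116 promoters of that length (10.9%). The windows of NQO1, GCLC, SRXN1, AKR1C1 and SQSTM1 did not hold these letters, which says nothing of elements farther away. The 3 windows with a match are printed because they are the sequences in which the searched motif was found. They run 5′ to 3′ on the strand of the gene, with the match in capitals. In GCLM the match begins 34 bases before the start site and lies on the opposite strand. In TXNRD1 it begins 99 bases before the first start site on the gene's strand, and 102 bases before the other on the opposite strand.
GCLM promoter, chr1:93909431-93909680, minus strand: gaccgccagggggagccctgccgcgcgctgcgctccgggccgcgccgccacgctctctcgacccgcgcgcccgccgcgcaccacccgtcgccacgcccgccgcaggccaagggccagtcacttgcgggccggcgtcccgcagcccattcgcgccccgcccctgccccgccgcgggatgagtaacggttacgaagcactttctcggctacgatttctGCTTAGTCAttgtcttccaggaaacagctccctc
TXNRD1 promoter, chr12:104215529-104215778, plus strand: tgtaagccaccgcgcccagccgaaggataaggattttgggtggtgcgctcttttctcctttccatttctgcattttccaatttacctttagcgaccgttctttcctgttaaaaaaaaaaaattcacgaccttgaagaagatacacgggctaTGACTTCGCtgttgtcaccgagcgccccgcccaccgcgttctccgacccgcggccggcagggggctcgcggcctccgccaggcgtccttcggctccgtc
TXNRD1 promoter, chr12:104286782-104287031, plus strand: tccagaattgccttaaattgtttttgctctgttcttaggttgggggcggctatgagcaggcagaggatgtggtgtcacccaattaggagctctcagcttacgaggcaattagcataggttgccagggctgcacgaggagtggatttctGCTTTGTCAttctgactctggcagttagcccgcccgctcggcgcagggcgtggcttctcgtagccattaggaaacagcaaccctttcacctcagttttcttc

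Libraries were compared before the genes were tested. The CDA transcript lay at 9.91 to 312 normalised counts in the control, at 775 to 5222 in the CDA group and at 1357 to 5475 in the CDA_E67Q group, so every overexpressing library exceeded every control. Even so its adjusted p by limma was 0.0676 in CDA against control (log2 difference 4.71, SE 0.46) and 0.0691 in CDA_E67Q against control (5.09, SE 0.54), past the 0.05 threshold in neither. Total normalised counts were 23.9 to 25.6 M, apart from 29.1 M in the CDA_E67Q library of pool 2. These totals are not read depths, because the deposited values were already normalised. Libraries with the same pool number deviated from their group means together (r from -0.06 to 0.893 over 11588 genes, above 0.1 in 13 of 15 pairs). The control library of pool 1 did not: its r was 0.011 with the CDA library and -0.06 with the CDA_E67Q library of pool 1, against 0.526 and 0.423 with those of pool 4. The control library of pool 4 was most like the CDA library of pool 1 (r = 0.472), but also had an r of 0.341 and 0.317 with those of pool 4. Differences between groups are therefore also given without pools 1 and 4. The line's keratins KRT8 and KRT18 and vimentin (VIM, 115978 to 307345) were abundant, EPCAM and CDH1 stayed at or below 3.50 and 3.59, and INS, GCG and SST were at 0. The endothelial cadherin CDH5 lay at 576 to 618 in the 3 libraries of pool 5 and at 0 in the others, while PECAM1 did not exceed 4.99. In bulk RNA, fewer cells of a type and less RNA per cell cannot be told apart.

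No NRF2 target differed between the groups at an adjusted p of 0.05. With limma and pool number as a block, 0 of 8 were called in CDA against control, where 0% of 11341 genes were called, and 1 of 8 had an unadjusted p under 0.05, against 1.77% of all genes. In CDA_E67Q against control 0 of 8 were called (0% of 11341 genes), and 0 of 8 had an unadjusted p under 0.05 (2.34% of all genes). In CDA against CDA_E67Q 0 of 8 were called (0% of 11588 genes), and 0 of 8 had an unadjusted p under 0.05 (1.1% of all genes). The median log2 difference of the 8 genes was 0.00066 in CDA against control (0.011 over all genes), with 4 of 8 above 0. It was 0.019 in CDA_E67Q against control (0.0071 over all genes), with 4 of 8 above 0, and -0.092 in CDA against CDA_E67Q (-0.0014 over all genes), with 2 of 8 above 0. The first 2 of these comparisons share the control libraries. For each of the 9 genes the ranges of any 2 groups overlapped, a description for which no share over all genes was counted. The overlap of AKR1B10, at 0 in 14 of 15 libraries, was set by its zeros.

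GCLC and GCLM encode the catalytic and the modifier subunit of glutamate-cysteine ligase, the rate-limiting enzyme of glutathione synthesis. Among the 8 targets GCLC had the smallest p in CDA against control, and it lay lower in 4 of 5 pools. In the control GCLC was at 1321, 724, 1042, 905 and 1048 in pools 1 to 5. The CDA libraries held 727, 568, 528, 1165 and 693 in the same order. The CDA_E67Q libraries held 795, 906, 498, 1102 and 965. The CDA library of pool 4 was thus within the upper control range, and the pool 3 library was the lowest of both overexpressing groups. The log2 difference of GCLC in CDA against control was -0.48 (SE 0.20, 95% interval -0.94 to -0.024, adjusted p = 1.00 by limma, n = 5 per group), the target with an unadjusted p under 0.05. Without pool 4 it was -0.70, and without pools 1 and 4 it was -0.64 (-0.28 for CDA_E67Q). In CDA_E67Q against control it was -0.26 (SE 0.22, 95% interval -0.76 to 0.24), and the difference between the forms was -0.22 (95% interval -0.67 to 0.22).

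For GCLM the 3 groups overlapped. Its level was 6211 ± 1855 (mean ± SD, n = 5) in the control, 6913 ± 1295 in CDA and 6043 ± 1693 in CDA_E67Q. The lowest library was the control of pool 1 at 3339 and the highest the control of pool 4 at 8525. The log2 differences from the control were 0.19 for CDA (95% interval -0.39 to 0.78) and -0.028 for CDA_E67Q (-0.58 to 0.52), intervals that leave room for a difference in either direction. Without pools 1 and 4 they were 0.14 and -0.23. The ratio of GCLM to GCLC normalised counts ran from 2.53 in the control of pool 1 to 13.2 in the CDA library of pool 2. In the CDA group it was at least 10.6 in pools 1, 2, 3 and 5 and 4.28 in pool 4, and in the control it did not exceed 9.43. The CDA_E67Q libraries, at 8.70, 3.95, 11.2, 5.45 and 8.44 in pools 1 to 5, overlapped both. These ratios were looked at after the values of both genes were known and were not tested.

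TXNRD1 encodes cytosolic thioredoxin reductase, which keeps thioredoxin reduced with NADPH. It differed between pools more than between groups. In the control TXNRD1 was at 14606, 10993, 12448, 9696 and 23052 in pools 1 to 5. The CDA libraries held 9616, 12387, 6579.9, 21837 and 24503. The CDA_E67Q libraries held 8353, 13808, 6296, 21066 and 25005. The pool 5 libraries were high in all groups, and those of pool 4 were high in both overexpressing groups, while the pool 4 control was the lowest control. The log2 difference from the control was -0.018 for CDA (SE 0.27, 95% interval -0.64 to 0.60) and -0.045 for CDA_E67Q (SE 0.28, -0.68 to 0.59). These were -0.22 and -0.18 without pools 1 and 4. Within pools the CDA difference ran from -0.92 in pool 3 to 1.17 in pool 4. CDA and CDA_E67Q libraries of the same number differed by no more than 0.203 in log2, and their fitted difference was 0.027 (95% interval -0.53 to 0.59).

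SRXN1, sulfiredoxin, which restores overoxidised peroxiredoxins, was the steadiest of the genes that passed the filter. It stayed between 2714 and 4401 in the 15 libraries, a 1.62-fold range with a coefficient of variation of 11.6%. The group levels were 3356 ± 149, 3417 ± 384 and 3531 ± 608 in control, CDA and CDA_E67Q (mean ± SD, n = 5). Its log2 differences from the control had the narrowest intervals of the 8 genes, 0.020 (-0.21 to 0.25) for CDA and 0.057 (-0.22 to 0.33) for CDA_E67Q. Without pools 1 and 4 they were -0.037 and 0.057.

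NQO1, a quinone reductase that is a standard readout of NRF2 activity, had similar levels in the 3 groups. In the control NQO1 was at 33118, 54742, 26460.1, 47688 and 33104.5 in pools 1 to 5. The CDA libraries held 45071, 43033, 26805, 37785 and 34511. The CDA_E67Q libraries held 43200.1, 56527.5, 29730.1, 30929 and 31674. The pool 3 libraries were the lowest of their group in every group. The log2 difference from the control was -0.032 for CDA (SE 0.14, 95% interval -0.36 to 0.30) and -0.018 for CDA_E67Q (SE 0.17, -0.41 to 0.37). Without pools 1 and 4 these were -0.089 and 0.052.

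HMOX1, heme oxygenase 1, which breaks heme down to biliverdin, iron and carbon monoxide, had 1 library far above the others. In the control it was at 621, 811, 628, 653 and 693 in pools 1 to 5. The CDA libraries held 612, 838, 924, 734 and 833. The CDA_E67Q libraries held 664, 2052, 1089, 630.1 and 768. The value of 2052 belongs to the library with the total of 29.1 M, and the groups overlapped. HMOX1 lay above the control in 4 of 5 pools for each form. The log2 difference was 0.20 for CDA (SE 0.13, 95% interval -0.10 to 0.51, adjusted p = 1.00 by limma). For CDA_E67Q it was 0.46 (SE 0.22, 95% interval -0.025 to 0.95, adjusted p = 0.998 by limma), and 0.25 without pool 2. Without pools 1 and 4 it was 0.76 for CDA_E67Q and 0.29 for CDA. CDA against CDA_E67Q gave -0.26 (95% interval -0.70 to 0.18), and -0.0039 without pool 2.

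AKR1C1, an aldo-keto reductase that reduces steroid ketones and lipid aldehydes, had the widest spread. In the control it was at 6431, 3783, 317, 5654 and 5199 in pools 1 to 5. The CDA libraries held 4099, 3966, 2147, 8710.1 and 6027. The CDA_E67Q libraries held 4739, 7854, 4489.7, 5528 and 6370.2. The control of pool 3 was the low library, 27.4-fold under the highest, and the remaining controls overlapped both other groups. The log2 difference from the control was 0.60 for CDA (SE 0.41, 95% interval -0.35 to 1.55, adjusted p = 1.00 by limma) and 0.94 for CDA_E67Q (SE 0.52, -0.23 to 2.11, adjusted p = 0.998). Without pool 3 these were 0.064 and 0.22, so their size depended on that pool. Leaving it out also takes out its overexpressing libraries, so the part of the control library alone was not tested. Without pools 1 and 4 they were 1.01 and 1.72. The coding sequence of AKR1C1 is 98.0% identical to that of AKR1C2 and 91.4% to that of AKR1C3, so reads could have been divided between these genes, and the value is uncertain to that extent. In the control of pool 3 AKR1C2 was at 83.2 and AKR1C3 at 21.2; the part of read division in the AKR1C1 value was not tested.

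AKR1B10, a retinal and aldehyde reductase that is often high in tumours with active NRF2, was at 0 in 14 of 15 libraries and at 3.36 in the control of pool 1. Its relative AKR1B1, whose coding sequence is 76.7% identical, was at 1073 ± 397 (mean ± SD, n = 15). No comparison was made for AKR1B10.

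SQSTM1 encodes p62, an autophagy receptor that also binds KEAP1. In the control SQSTM1 was at 6389, 9078, 5307, 7316 and 20294 in pools 1 to 5. The CDA libraries held 7124, 6896, 7237, 5601 and 21067. The CDA_E67Q libraries held 7779, 11017, 6536, 5229 and 23829. The pool 5 library was the highest of each group, with no overlap with the other pools. The log2 difference from the control was -0.025 for CDA (SE 0.14, 95% interval -0.36 to 0.31) and 0.12 for CDA_E67Q (SE 0.15, -0.22 to 0.46). Leaving out pools 1 and 4 gave 0.035 and 0.27. CDA against CDA_E67Q gave -0.15 (95% interval -0.46 to 0.17).

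The spread over pools was then tested, with group in the fit. Of the 8 genes, 4 differed between pool numbers by limma's F test, a share close to that of all genes, of which 45% were called. They were SQSTM1 (adjusted p = 8.4e-05), TXNRD1 (adjusted p = 0.0141), NQO1 (adjusted p = 0.0190) and AKR1C1 (adjusted p = 0.0496), all by limma. The calls of NQO1 and TXNRD1 were lost without the CDA libraries (adjusted p = 0.131 and 0.181) and without the CDA_E67Q libraries (0.114 and 0.190), and that of AKR1C1 under 7 of 8 alternatives (0.0490 to 0.181 over all). That of SQSTM1 was kept in all 8 (at most 0.00928). Pool number held a median of 60.5% of the variance of the 8 genes and group 4.34%, against 61.0% and 4.35% over all genes tested. Neither share was corrected for the number of pools and groups. The group share was 22.9% for GCLC, 19.2% for HMOX1, 12.4% for AKR1C1 and 6.50% for GCLM. It was 2.18% for SRXN1, 0.82% for SQSTM1, 0.15% for NQO1 and 0.079% for TXNRD1. The pool share was 92.9% for SQSTM1, 75.3% for NQO1, 70.7% for SRXN1, 70.3% for TXNRD1, 50.6% for AKR1C1, 45.1% for HMOX1, 36.4% for GCLC and 12.5% for GCLM.

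Among the 8 targets SQSTM1 and TXNRD1 were called higher in pool 5. SQSTM1 rose by 1.64 in log2 against the mean of the other 4 pools (SE 0.15, 95% interval 1.31 to 1.96, adjusted p = 6.1e-06 by limma), from pool means of 6049 to 8997 to 21730.2 ± 1859 (SD, n = 3). TXNRD1 rose by 1.08 (SE 0.26, 95% interval 0.51 to 1.65, adjusted p = 0.00494 by limma), to 24187 ± 1014 from pool means of 8441 to 17533. These were 2 of 8 genes higher and 0 lower, where 24.4% of all genes were higher and 24.2% lower. Both calls were kept without each group of libraries in turn. The other 6 genes had log2 differences of -0.21 to 0.58 in pool 5, none of them called. Markers of other cells were summed in the same libraries. The 5 fibroblast markers summed to 26249 to 29323 in pool 5 and to 7006 to 41678 elsewhere. Among them COL1A2 was at 26087 to 29126 in pool 5 and at 6983 to 41579 elsewhere. COL1A1 was at 97.8 to 195 in pool 5 against at most 99.0 elsewhere, and DCN and LUM were at 0. The 3 endothelial markers summed to 582 to 619.96 in pool 5 and to 1.01 to 27.2 elsewhere, with CDH5 at 576 to 618 and PECAM1 at or below 2.31 in pool 5. The 5 immune markers summed to 1477 to 1773 in pool 5 and to 349 to 1738 elsewhere, with CD68 at 1471 to 1749 in pool 5 against at most 1115 elsewhere, LYZ at 5.81 to 13.9 in pool 5 against up to 1200.3 in pool 4, and PTPRC at or below 10.5. The line's own 7 markers summed to 302808 to 339276 in pool 5 and to 160775 to 310125 elsewhere. Among them the pool means of VIM (284292) and KRT19 (7792) were the highest of the 5 pools and that of KRT8 (11779.8) the lowest, while KRT18 was at 13409 in pool 5 and 13386 in pool 3. Their part in the results of pool 5, here and in the lists that follow, was not tested.

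In the other pools 2 further calls were made. NQO1 was higher in pool 2 by 0.57 in log2 (SE 0.15, 95% interval 0.24 to 0.90, adjusted p = 0.0261 by limma), where 8.15% of all genes were higher and 7.38% lower. That call was lost without the control libraries (adjusted p = 0.0562), the CDA libraries (0.0847) or the CDA_E67Q libraries (0.257). SQSTM1 was lower in pool 4 by 0.68 (log2 difference -0.68, SE 0.15, adjusted p = 0.0151 by limma), where 5.98% of all genes were lower and 4.69% higher. It was lost without the CDA libraries (adjusted p = 0.137) or the CDA_E67Q libraries (0.169), and it was -0.89 without the controls (0.0256). In pool 1, where 0.803% of genes were called, and in pool 3, where 3.04% were, 0 of 8 passed; 1 and 5 of 8 had an unadjusted p under 0.05, against 12.7% and 18.1% of all genes. In pool 3 AKR1C1 had a log2 difference of -1.93 (SE 0.48, adjusted p = 0.0503 by limma) and TXNRD1 of -0.91 (SE 0.26, adjusted p = 0.0852). The AKR1C1 value was -0.88 without the controls, which hold the library at 317, and -2.68 without the CDA_E67Q libraries, and it was called with a pseudocount of 5 (adjusted p = 0.0492, 0.0492 to 0.253 over the alternatives). In pool 3 SQSTM1 (-0.59, adjusted p = 0.0544 by limma) and NQO1 (-0.54, adjusted p = 0.0770) were called with no group term in the fit (adjusted p = 0.0333 and 0.0416) and under none of the other 7 alternatives. Without the controls TXNRD1 was called lower in pool 1 (-0.70, adjusted p = 0.0214) and pool 3 (-1.29, adjusted p = 0.00383) and higher in pool 4 (0.88, adjusted p = 0.0119).

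Levels were set in order per kilobase of the annotated transcript, as a mean over the 15 libraries on the normalised count scale. NQO1 was at 13149.7 ± 3303 per kilobase (SD, n = 15). TXNRD1 followed at 3736 ± 1688 and SQSTM1 at 3365 ± 2096. GCLM was at 1315 ± 321, SRXN1 at 1273 ± 148 and AKR1C1 at 749 ± 312. HMOX1 was at 459 ± 199, GCLC at 227 ± 64.3 and AKR1B10 at 0.141. Each neighbouring pair after NQO1 overlapped in range, and AKR1B10 stood apart at the end. NQO1 did not overlap TXNRD1 unless the shortest transcript with the same coding sequence was used for TXNRD1, which put it at 7596 ± 3432. The place of AKR1C1 depends on its long annotated transcript of 6705 bases. In GRCh38 (GENCODE), NQO1 lies on chromosome 16 at 69706996 to 69726951, TXNRD1 on chromosome 12 at 104215779 to 104350305, and SQSTM1 on chromosome 5 at 179806398 to 179838078. GCLC lies on chromosome 6 at 53497341 to 53616970, GCLM on chromosome 1 at 93885205 to 93909456, and HMOX1 on chromosome 22 at 35380361 to 35394214. SRXN1 lies on chromosome 20 at 646615 to 653370, AKR1C1 on chromosome 10 at 4963253 to 4983283, and AKR1B10 on chromosome 7 at 134527592 to 134541408.

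The 8 genes were also compared with each other over the libraries. Of their 28 pairs, 17 had a Pearson r above 0 over the 15 libraries and 4 an r above 0.5, with a median of 0.19. The highest was 0.63 for GCLC with TXNRD1 and the lowest -0.45 for HMOX1 with GCLM. NQO1 had an r of 0.59 with SRXN1, and GCLC one of -0.37 with its partner GCLM. TXNRD1 with SQSTM1 had an r of 0.52, and of -0.34 without the pool 5 libraries. Other pairs had a higher r without pool 5: NQO1 with SQSTM1 went from 0.041 to 0.76, HMOX1 with SQSTM1 from 0.20 to 0.67, GCLC with TXNRD1 from 0.63 to 0.79 and TXNRD1 with SRXN1 from 0.58 to 0.74. These values are descriptions with no p, since libraries share pool numbers and pool 5 stands apart.

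By the highest r over the 15 libraries, up to 3 genes outside the list are named for each target, with nothing said of shared control. NQO1 was most like CRELD2 (r = 0.903), the ferritin heavy chain gene FTH1 (0.900) and DNAJB11 (0.892), and without the CDA_E67Q library of pool 2 these were 0.873, 0.885 and 0.862. HMOX1 was most like RPLP2 (0.965, and 0.870 without the same library), EEF1D (0.945) and BAG6 (0.942). GCLC was most like MYB (0.880), SEPHS2 (0.818) and KCNMB4 (0.810). GCLM was most like UEVLD (0.934), SERINC3 (0.888) and RAB2B (0.873). TXNRD1 was most like TPBG (0.955), WT1 (0.947) and PPP3CA (0.926), and SRXN1 had r values of 0.938 with PANK2 and 0.893 with GEMIN6. AKR1C1 was most like DAPK3 (0.934), FBXL19 (0.896) and MED15 (0.879), and without the control of pool 3 these were 0.762, 0.856 and 0.469. SQSTM1 was most like PANX2 (0.969), FHL3 (0.963) and VAT1 (0.962), and without pool 5 these were 0.810, 0.785 and 0.789.

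The regulators were measured as transcripts, which need not follow NRF2 protein. NFE2L2 was at 1433 ± 197 in the control, 1436 ± 337 in CDA and 1393 ± 265 in CDA_E67Q (mean ± SD, n = 5). KEAP1 was at 1573 ± 499, 1721 ± 532 and 1823 ± 565 in the same order, and the repressor BACH1 at 668 ± 113, 695 ± 300 and 757 ± 295. None of the 14 regulators listed was called in a comparison of groups. In pool 5, 5 of the 14 were higher and 5 lower, where 24.4% of all genes were higher and 24.2% lower. CUL3 fell by 1.24 in log2 there, to 1345 ± 64.9 (SD, n = 3) from pool means of 2898 to 3402 (adjusted p = 1.8e-05 by limma), and RBX1 fell by 1.12. KEAP1 and NFE2L2 were also lower in pool 5, at 1082 ± 46.3 and 1125 ± 45.5, as was DPP3 (log2 difference -1.01). Of the 5 that were higher there, TRIM16 rose by 0.75 (adjusted p = 0.00026 by limma) and MAFF by 0.76. In pool 2 NFE2L2 was higher by 0.37 (SE 0.12, adjusted p = 0.0467 by limma), and no fit without a group is given for it. BACH1 had an r of -0.88 with NQO1 over the 15 libraries and of -0.89 without pool 5, and MAFG one of 0.60 with NQO1. These were extremes. With the other targets BACH1 ran from -0.63 (SRXN1) to 0.060 (GCLM), with -0.23 for HMOX1. MAFG ran from -0.28 (GCLC) to 0.52 (GCLM) with them, and had -0.0051 with HMOX1. NFE2L2 had r values of -0.56 (with SQSTM1) to 0.39 (with HMOX1) with the 8 targets, and without pool 5 these 2 were 0.035 and 0.45.

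The other genes of the pathway were likewise not called between groups. Of 80 listed, 76 were tested, and 0 were called in each of the 3 comparisons of groups. Of the 76, 27 lay above 0 in CDA against control, 46 in CDA_E67Q against control and 21 in CDA against CDA_E67Q. Of all genes tested, 52.8%, 51.4% and 49.6% lay above 0 in the same order. The part in these counts of the CDA_E67Q library of pool 2, with its total of 29.1 M, was not tested. The median log2 differences were -0.026, 0.050 and -0.071, against 0.011, 0.0071 and -0.0014 over all genes tested. The smallest p values in CDA against control belonged to the NADPH-producing dehydrogenase IDH1 (log2 difference -0.27, adjusted p = 1.00 by limma) and to the KEAP1-binding protein gene AMER1 (-0.50, adjusted p = 1.00 by limma).

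Between pools, 46 of the 76 were called by the F test (60.5%, against 45% of all genes). In pool 5, 25 of the 76 were higher and 25 lower, 65.8% in all, against 48.6% of all genes. Of all genes, 24.4% were higher in pool 5 and 24.2% lower. Of 11 glutathione genes tested, 6 were lower in pool 5, 0 were higher and 5 were not called. The cystine transporter subunit SLC3A2 fell by 1.39 in log2 to 2349 ± 115, and glutathione synthetase GSS fell by 0.83. In pool 2, 8.15% of all genes were higher and 7.38% lower. There 5 of these 11 were higher and 0 lower, among them SLC3A2 by 1.04 and the peroxidase GPX1 by 0.90. Within pool 2 SLC3A2 ran from 6071 to 14282 and GPX1 from 3331 to 4377. Over all genes 1799 were called in pool 2, and 26 to 1619 in the smaller fits without each group in turn. The 5 glutathione calls are not given without a group. Of 9 conjugation and efflux genes, 7 were higher in pool 5, among them SLC6A6 by 0.82 and TRIM16L by 0.78. The 1 that was lower was the exporter ABCC2 (log2 difference -1.24). Of 10 aldo-keto and carbonyl reductase genes, 5 were higher and 2 lower there. AKR1C2 rose by 3.25 in log2 to 367 ± 74.3 from pool means of 18.2 to 82.8, and AKR1C3 by 2.52 to 102 ± 34.9. Their near-copy AKR1C1, at 5866 ± 602 in pool 5, had a difference of 0.58 (95% interval -0.45 to 1.62). Reads could have been divided between these genes, and the part of that in the rises was not tested.

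TXNIP, which binds and blocks thioredoxin, rose by 3.32 in log2 in pool 5 (SE 0.26, adjusted p = 2.8e-06 by limma), to 27146 ± 1363 from pool means of 2158 to 3591. In the thioredoxin list 1 of 8 was higher there and 2 were lower; for this list and those that follow, 24.4% of all genes were higher in pool 5 and 24.2% lower. The ferritin light chain gene FTL rose by 0.98 to 183279 ± 9048, and of 9 heme and iron genes 2 were higher and 3 lower. In the NADPH list 1 of 7 was higher, the pentose phosphate enzyme TKT by 0.95, and 4 were lower. Among autophagy receptors beside SQSTM1, 3 of 5 were higher and 1 lower. OPTN rose by 1.76 to 3686 ± 67.0 (SD, n = 3), NBR1 rose by 0.55, and TAX1BP1 fell by 0.67. Superoxide dismutase genes moved apart, with SOD2 up by 0.55 and SOD1 lower (log2 difference -0.997).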

How the data were processed

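The authors deposited 2 tables of log2 values for 16887 genes, each pairing the 5 control libraries with those of 1 overexpressing group. Salmon, Trimmomatic, FastQC and bcl2fastq are named, without versions, with GRCh38, per the submitters' processing notes; the step to log2 values and the use of strand are not given in the sources used here. The lowest value of each table, 6.65 or 6.17, was taken as 0, and the values were turned back into normalised counts as variance-stabilised log2 values, a form inferred from the values themselves. The 5 control libraries, found in both tables, put 13917 genes on 1 scale.

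Log2 of 1 plus the normalised count was tested with limma 3.58.1 (R 4.3.3) and its trend option, with Benjamini-Hochberg adjustment over all genes and 2-sided p-values. This scale understates changes of low genes. CDA and CDA_E67Q were compared with the control within their own tables, and other fits used 15 libraries. Pool number was a block because the genes were to be compared by pool; the correlations given with the results show that the numbers do not pair all libraries. The fits were tested on simulated data. Python 3.11.15 prepared tables and plots, and coding sequences came from GENCODE.

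The 9 targets, the lists of other pathway genes and markers, and the tests were chosen with earlier results of these data known. All 9 targets and CDA are named, with the 3 genes most correlated with each target, of which 1 is not reported here, and up to 4 called genes, or the 2 with the smallest p, from each list; KEAP1, NFE2L2, BACH1, CUL3 and MAFG are named as regulators, and AKR1B1 as a copy.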

Additional observations from a re-analysis of the deposited data

Results flagged for a closer look

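In 3 of the 27 sets of 5 libraries checked, 1 per gene and group, the highest library lay farther from its nearest neighbour than 0.71 of the range of the set. Chance flags about 1 set in 20 only where the values are independent and normally distributed. These libraries are not known to be independent, and the counts were not shown to be normally distributed. The 3 flags are therefore not compared with that rate. SQSTM1 was at 20294 normalised counts in the control of pool 5, with 9078 in the next library. It was at 21067 in the CDA library of pool 5, with 7237 in the next. The SQSTM1 flags thus repeat the rise in pool 5 that was tested above. AKR1B10 was at 3.36 in the control of pool 1 and at 0 in the other controls. With the other controls all at 0 its ratio is 1 whatever the size of that value. AKR1B10 was at 0 in every CDA and CDA_E67Q library, so those sets have no range and could not be flagged.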

How the results depend on the processing

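Of 320 log2 differences of the 8 targets between groups under alternatives, 0 were called, and the lowest adjusted p by limma was 0.715. The sign was kept under every alternative tried for GCLC, HMOX1 and AKR1C1 in CDA against control, for these and SQSTM1 in CDA_E67Q against control, and for all but NQO1, SRXN1 and TXNRD1 in CDA against CDA_E67Q. With no replicate block the counts of genes called between groups were 0, 0 and 0, and 32, 54 and 24 genes had an unadjusted p under 0.05. The count was 1, the CDA gene itself, with a pseudocount of 5, on the values as deposited and with all 15 libraries in 1 fit, for CDA and for CDA_E67Q against control, and for CDA_E67Q also without pools 1 and 4, a setting chosen after seeing the data. Without each replicate in turn the counts between groups were 0 to 0. Without each group in turn, 1761 to 4131 genes differed between pool numbers, 1 to 407 in pool 1, 26 to 1619 in pool 2, 43 to 378 in pool 3, 27 to 792 in pool 4 and 3364 to 4501 in pool 5; these fits had fewer libraries. The most similar library of another group had the same number in 23 of 30 searches, so the numbers are not shown to pair all libraries. Read depths are not given. The interval widths show what these fits resolve, from -0.21 to 0.25 for SRXN1 to -0.35 to 1.55 for AKR1C1 in CDA against control. In the 3 comparisons of groups 1.77%, 2.34% and 1.1% of all genes had an unadjusted p under 0.05 by limma. These shares are below what that threshold gives where nothing differs and libraries are independent. The intervals may thus be wider than the libraries require, which was not tested.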
